A study of Mus musculus with 6 samples.

Results

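The BCL2 family controls the mitochondrial route of apoptosis, and its 10 best known genes, BCL2, BCL2L1, BCL2L2, MCL1, BCL2L11, BBC3, BID, BAD, BAX and BAK1, were read here in a melanoma line. They were taken by symbol from a table of 14915 genes, and 10 of 10 were found. RNA sequencing covered 3 libraries labelled WT and 3 labelled ZBTB5-S127A of B16F10, a mouse melanoma cell line. In the S127A cells the transcription factor ZBTB5 carries alanine in place of a serine, so that this site cannot be phosphorylated. Cells of both genotypes were given TNFα while amino acids were limited, so the comparison is between libraries labelled by genotype under that treatment. The sources used here do not give the dose and duration of TNFα, the way the S127A line was made, whether it is 1 clone, or whether replicates came from separate cultures. The p-values therefore measure the spread between these libraries, which may be technical.

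BCL2 family proteins meet at the outer membrane of the mitochondrion. Effectors (BAX and BAK1) open pores in that membrane and release cytochrome c. Pro-survival members (BCL2, BCL2L1, BCL2L2 and MCL1) bind effectors and activators in a groove and hold them back, and BH3-only members (BCL2L11, BBC3, BID and BAD), which sense stress, occupy that groove or activate effectors directly. Melanocytes and melanomas are known to depend on BCL2, whose gene is a target of the lineage factor MITF, and on MCL1. Protein level, localisation and phosphorylation, through which much of this control runs, were not measured.

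Values are TPM, transcript abundances that divide reads by gene length and by the library total, so levels of different genes can be set beside each other. The deposited columns did not share a common total, with means of 863992 ± 903 TPM in WT and 831872 ± 1326 TPM in S127A. A change is the S127A value minus the WT value of log2(TPM + 1), fitted by limma across 10348 genes with a mean of at least 1 TPM, a filter that 10 of 10 members passed. Called genes are those with a Benjamini-Hochberg adjusted p under 0.05 over all genes tested, and means are given ± SD with n = 3 libraries a group. Nearly the whole transcriptome differed: 90.0% of tested genes were called, 40.2% higher and 49.8% lower in S127A, and the median absolute log2 change was 0.69. The split into higher and lower depends on scaling. Melanocyte markers were among the genes that differed. The 10 melanocyte markers checked summed to between 19198 and 19376 TPM in WT libraries and to between 114 and 123 TPM in S127A libraries, where 4 of them had a mean under 1 TPM. Whether the S127A cells are otherwise the same line as the WT cells was not tested, so an effect of the substitution and a difference between lines cannot be told apart in any value below. Summed fibroblast markers stood at 16.2 to 17.2 TPM in WT and 301 to 313 TPM in S127A, immune markers at 8.32 to 9.46 and 49.8 to 53.9 TPM, and endothelial or epithelial markers at 1.37 to 1.84 and 63.3 to 64.1 TPM. A single gene makes up most of each S127A sum: COL1A2 (mean 275 TPM) of the fibroblast markers, CD14 (45.1) of the immune markers and KRT18 (62.8) of the endothelial or epithelial markers. The rise of fibroblast markers was not confined to COL1A2, since of 6 tested 5 were higher in S127A and 1 was lower. COL1A1 stood at 0.587 TPM in WT and 10.7 in S127A, and PDGFRA at 0.383 and 5.98 TPM. Other markers of these lists were lower in S127A, with POSTN at 7.79 and 0.0667 TPM, CD68 at 7.64 and 4.69 TPM and VWF, which was not tested, at 1.30 and 0.09 TPM. PTPRC, which marks leukocytes, and PECAM1, which marks endothelium, had means of 0.11 TPM or less in each group. LUM and THY1 were listed at 0 in all S127A libraries and DCN in all WT libraries. The part of these shifts in the results below was not tested, and in bulk RNA fewer cells of a type and less RNA per cell cannot be told apart. ZBTB5 itself measured 15.5 ± 0.54 TPM in WT against 8.90 ± 0.569 in S127A, which does not show the substitution.

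Of the 10 family genes, 6 were higher in S127A, 3 were lower and 1 did not pass, and WT and S127A libraries did not overlap for 9 of 10. Such calls and separations are close to the background of 90.0% of genes called and 90.2% with groups that did not overlap, so the number called is no result about the family. Direction and size are described by role, with no test of a role. In size, BCL2L11 exceeded 91.7% and BCL2L1 71.2% of tested genes. The other members lay between 2.6% (BBC3) and 58.3% (BCL2), and directions were mixed within the pro-survival genes. The pro-survival genes BCL2L1, BCL2L2 and MCL1 rose while BCL2 fell, both effectors fell, and of the BH3-only genes BCL2L11 rose 10.02-fold in TPM while BBC3 did not pass. The median log2 change of the members was 0.39, beside −0.12 for all tested genes.

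**Figure D1:**
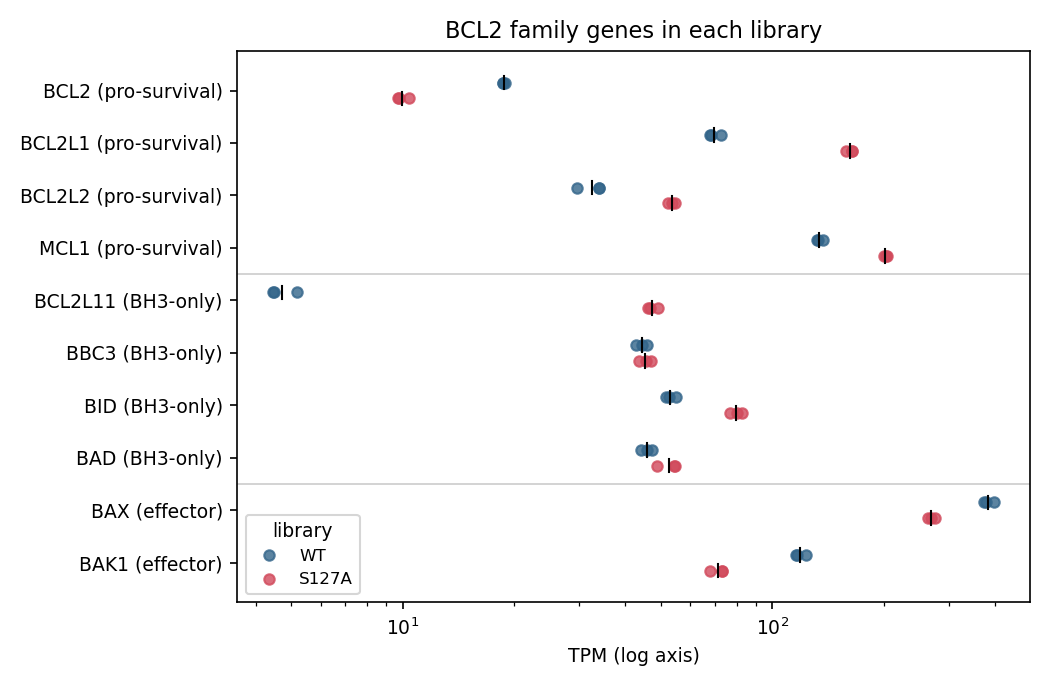
TPM of the 10 BCL2 family genes on a log axis, with a point for each of 3 WT and 3 S127A libraries and a black bar at each group mean. BCL2L11 moves from a mean of 4.72 to 47.2 TPM, the points of BBC3 overlap, and BAX and BAK1 lie lower in S127A.

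BCL2L11 encodes BIM, a BH3-only protein that binds every pro-survival member and can activate BAX and BAK1 directly. Its gene lies on mouse chromosome 2 from 128126038 to 128162547 on the plus strand (mm10), and no other annotated gene shares its exon bases. It was the least abundant member in WT, at 5.19, 4.49 and 4.47 TPM, and stood at 49.0, 46.04 and 46.7 TPM in S127A. Every S127A library was thus far above every WT library. The log2 change of 3.08 (SE 0.0622, limma adjusted p = 2.91e-12) exceeded in size the change of 91.7% of tested genes. Called changes of at least 3 on this scale made up 8.73% of tested genes, and rises of that size 3.78%.

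Upstream sequences from RefSeq (GRCm38.p6) are shown for a pair of BH3-only genes that differ in their RNA response and share a short motif. RefSeq gave 16 start sites for the 10 genes, and the 250 bases before each were searched on both strands for the FOXO core GTAAACA. FOXO factors are known activators of BCL2L11 and BBC3. The motif was chosen with these sequences in view. A match was present in 2 of the 16 windows, 1 each in Bcl2l11 and Bbc3, and in 3.16% of 32817 windows of the same length over all genes. Capitals mark the match.
Bcl2l11, chr2:128125788-128126037, plus strand: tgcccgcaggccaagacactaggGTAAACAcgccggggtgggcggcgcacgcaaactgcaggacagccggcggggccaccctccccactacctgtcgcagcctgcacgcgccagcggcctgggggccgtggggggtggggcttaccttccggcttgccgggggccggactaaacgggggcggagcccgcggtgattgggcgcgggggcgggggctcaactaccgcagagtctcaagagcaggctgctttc
Bbc3, chr7:16310011-16310260, plus strand: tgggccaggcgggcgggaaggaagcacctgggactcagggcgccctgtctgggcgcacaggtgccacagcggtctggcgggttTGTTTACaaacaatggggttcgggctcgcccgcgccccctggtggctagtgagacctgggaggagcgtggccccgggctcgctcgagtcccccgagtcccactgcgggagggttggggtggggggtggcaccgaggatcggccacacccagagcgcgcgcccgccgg
The match begins 227 bases before the first of 2 Bcl2l11 starts and 167 bases before the middle one of 3 Bbc3 starts, and it overlapped no match of the other motifs searched. With a match in both windows, the RNA of BCL2L11 rose and that of BBC3 did not pass. FOXO3 (chosen after seeing its values) fell in the same libraries, from 32.5 ± 1.11 to 17.7 ± 0.67 TPM (adjusted p = 2.16e-08). FOXO1 stood at 7.36 ± 0.926 and 7.13 ± 0.332 TPM and did not pass (adjusted p = 0.702). Factor binding was not measured, and a match is a description of letters only.

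BBC3 encodes PUMA, a BH3-only protein whose gene is switched on by several kinds of stress (chromosome 7, 16308393 to 16318205, plus strand). WT libraries held 42.87, 44.33 and 45.71 TPM and S127A libraries 43.46, 46.86 and 45.56 TPM. These ranges overlap over most of their length. The log2 difference was 0.03 with a 95% confidence interval from −0.07 to 0.13 (adjusted p = 0.505 by limma, and p = 0.5, two-sided, by exact permutation of the 6 values). The call depends on scaling, since BBC3 passed as higher with TMM factors (log2 change 0.15, adjusted p = 0.00727) and quantile normalization (0.11, adjusted p = 0.036), over a range of adjusted p from 0.00727 to 0.898 in 17 alternatives. On TPM as deposited, only 2.6% of tested genes had a smaller absolute log2 difference. BCL2L11 stood at 0.107 ± 0.0126 of the BBC3 level in WT and at 1.05 ± 0.0745 in S127A, so the pair reached like levels in the S127A libraries.

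BID links death receptors such as the TNF receptor to mitochondria, because caspase-8 cuts it into an active fragment. Its gene lies on chromosome 6 from 120891930 to 120916853 on the minus strand. WT libraries held 51.45, 52.55 and 54.71 TPM of it and S127A libraries 76.58, 82.97 and 80.15 TPM. All S127A libraries lay above all WT libraries, with a log2 change of 0.59 (SE 0.0412, adjusted p = 1.16e-07). Exons of Bcl2l13 on the opposite strand share 17.7% of the exon bases of Bid. BCL2L13 fell from 46.1 ± 1.12 to 21.5 ± 0.457 TPM while BID rose, and whether the counting used strand is not stated in the sources used.

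BAD is a BH3-only protein that growth factor kinases phosphorylate, after which 14-3-3 proteins hold it in the cytosol (chromosome 19, 6941861 to 6951899, plus strand). WT libraries held 44.03, 47.37 and 45.9 TPM and S127A libraries 54.47, 54.31 and 48.58 TPM. The groups do not overlap, though S127A replicate 3 lies close to the highest WT library. The log2 change of 0.19 (SE 0.0514, adjusted p = 0.00461) was smaller than that of most genes, with 15.4% of tested genes below it in size. As a share of the summed TPM of the 10 members, BAD made up 5.07% ± 0.153 in WT and 5.29% ± 0.326 in S127A, and these shares overlap between groups. Gpr137, on the opposite strand, shares 20.5% of the exon bases of Bad. GPR137, named after its values were seen, stood at 25.0 ± 1.88 and 27.7 ± 2.44 TPM and did not pass (adjusted p = 0.0784), though it passed as higher in 5 of the alternatives run.

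Among the pro-survival genes BCL2L1 moved most. It encodes BCL-XL, and a shorter splice form of the same gene is pro-apoptotic, which TPM per gene cannot separate (chromosome 2, 152780668 to 152831728, minus strand). WT libraries held 68.3, 67.69 and 72.44 TPM and S127A libraries 158.41, 164.16 and 163.89 TPM, with no overlap. Its log2 change was 1.21 (SE 0.036, adjusted p = 6.92e-11), a size above that of 71.2% of tested genes. A change of at least 1 was called for 35.4% of tested genes, and a rise of at least 1 for 15.5%. RELA and NFKB1, NF-kB subunits known to act on BCL2L1 and chosen after seeing their values, rose from 76.7 ± 2.74 to 112 ± 6.51 and from 104 ± 2.43 to 171 ± 2.88 TPM. Of the 15 tested factors known to act on family genes, 5 rose, with these subunits among them. The 9 that fell include STAT3 and STAT5A. Whether any of these factors acted on BCL2L1 here was not tested.

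MCL1 is a short-lived pro-survival protein whose level follows its synthesis and its turnover by the proteasome (chromosome 3, 95658788 to 95663176, plus strand). It stood at 136.56, 131.57 and 132.83 TPM in WT and at 199.97, 203.47 and 202.17 TPM in S127A. The groups are well apart and replicates lie close together. The log2 change was 0.59 (SE 0.029, adjusted p = 5.01e-09). It was the most abundant pro-survival transcript in both groups, yet its share of the 4 fell from 52.6% ± 0.895 to 47.2% ± 0.206 as that of BCL2L1 went from 27.3% ± 0.798 to 37.9% ± 0.366. These shares are given with no test.

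BCL2L2 encodes BCL-W, a further pro-survival protein (chromosome 14, 54883377 to 54888234, plus strand). It stood at 33.88, 29.61 and 33.85 TPM in WT and at 53.35, 52.29 and 54.36 TPM in S127A. WT replicate 2 was the lowest library and no WT library reached the S127A range. The log2 change was 0.70 (SE 0.054, adjusted p = 2.53e-07). Gm20521, a readthrough gene model on the same strand, shares 13.3% of the exon bases of Bcl2l2, so reads there cannot be assigned to 1 of them by position alone.

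BCL2, the founding member, went the other way from the other pro-survival genes (chromosome 1, 106538178 to 106714274, minus strand). WT libraries held 18.93, 18.67 and 18.65 TPM and S127A libraries 10.42, 9.79 and 9.69 TPM. WT libraries were nearly alike and lay above all S127A libraries. Its log2 change was −0.85 (SE 0.0525, adjusted p = 3.68e-08), at a TPM ratio of 0.532. MITF, which is known to act on BCL2, fell by 3.98 in the same libraries, from 143 ± 9.67 to 8.17 ± 0.487 TPM. Whether the fall of BCL2 is linked to that of MITF was not tested. BCL2 made up 7.37% ± 0.155 of the summed pro-survival TPM in WT and 2.33% ± 0.118 in S127A, and it was the least abundant of the 10 members in S127A. D630008O14Rik, an antisense gene on the opposite strand, shares 6.09% of the exon bases of Bcl2.

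The effectors were lower in S127A. BAX, which moves from the cytosol to mitochondria when activated, was the most abundant member in both groups (chromosome 7, 45461697 to 45466898, minus strand). WT libraries held 373.3, 396.56 and 378.36 TPM and S127A libraries 267.65, 274.65 and 262.82 TPM. Its log2 change was −0.51 (SE 0.0322, adjusted p = 4.44e-08). Gm45808, on the same strand, shares 12.2% of the exon bases of Bax.

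BAK1, the effector that sits in the outer membrane already in healthy cells, stood at 123.35, 116.81 and 115.66 TPM in WT and at 67.92, 73.02 and 72.94 TPM in S127A (chromosome 17, 27019810 to 27029009, minus strand). Neither effector had a library inside the range of the other group. The change of BAK1 was −0.73 (SE 0.0407, adjusted p = 1.57e-08). The ratio of BAX to BAK1 was 3.23 ± 0.188 in WT and 3.77 ± 0.169 in S127A, so BAX made up most of the effector RNA throughout. Exons of the 2 annotated Ggnbp1 models on the opposite strand share 18.2% and 7.35% of the exon bases of Bak1.

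Further motifs were searched in the same 16 windows because MITF, which binds E-box and M-box sequences, differed so widely. The E-box CACGTG reads the same on both strands and matched in 2 windows, Bax and the most downstream Bbc3 start, beside 6.02% of all windows. The M-box core CATGTG, likewise on both strands, matched in 1 window, the most downstream of 3 Bcl2l1 starts, beside 12.3% of all windows. The window of Bcl2 held none of the 3 motifs. The windows that hold the match for a gene that fell and a gene that rose are printed, with the match in capitals.
Bax, chr7:45466899-45467148, minus strand: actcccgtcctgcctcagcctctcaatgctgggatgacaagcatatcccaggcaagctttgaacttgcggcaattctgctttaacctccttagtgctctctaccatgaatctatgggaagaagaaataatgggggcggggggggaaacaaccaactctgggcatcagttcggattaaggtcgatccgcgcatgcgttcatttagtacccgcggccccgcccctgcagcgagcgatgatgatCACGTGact
Bcl2l1, chr2:152828490-152828739, minus strand: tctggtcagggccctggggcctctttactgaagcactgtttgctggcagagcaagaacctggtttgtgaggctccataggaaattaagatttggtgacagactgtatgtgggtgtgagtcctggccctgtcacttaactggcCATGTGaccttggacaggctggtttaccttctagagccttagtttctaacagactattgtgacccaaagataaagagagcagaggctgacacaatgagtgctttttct
The match lies 9 bases before the Bax start and 108 bases before that Bcl2l1 start. BAX fell and BCL2L1 rose in the libraries in which MITF was low. The windows are short, and no match in them says nothing of sites elsewhere.

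**Figure D2:**
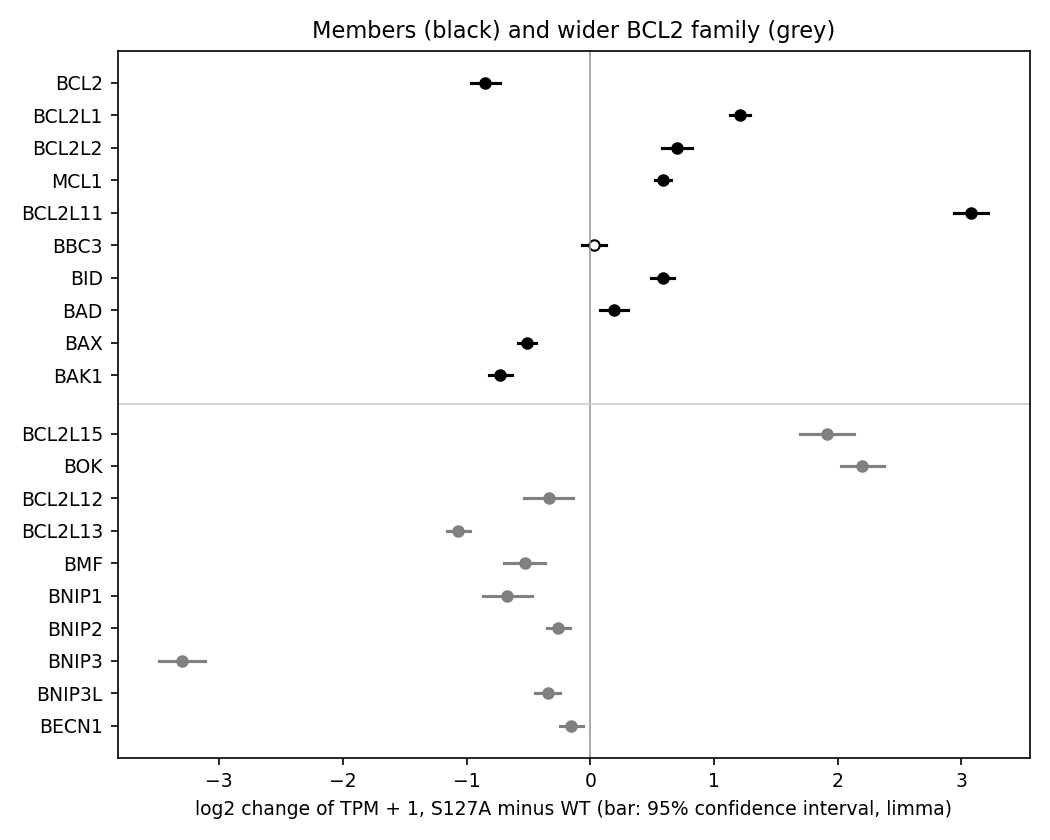
Log2 change of TPM + 1, S127A minus WT, for the 10 members (black) and 10 tested genes of the wider BCL2 family (grey), with 95% confidence intervals from limma and an open point where the test did not pass. BCL2L11 stands at 3.08 and BNIP3 at −3.30, and the interval of BBC3 spans 0.

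The order of abundance was rearranged between the groups. In WT the means ran from BAX through MCL1, BAK1, BCL2L1, BID, BAD, BBC3, BCL2L2 and BCL2 down to BCL2L11, and of these neighbours only BAD and BBC3 had overlapping ranges. In S127A they ran from BAX through MCL1, BCL2L1, BID, BAK1, BCL2L2, BAD, BCL2L11 and BBC3 down to BCL2. There the neighbours BCL2L2 and BAD, BAD and BCL2L11, and BCL2L11 and BBC3 overlapped, though all BCL2L2 values lay above all those of BCL2L11 and BBC3. BAK1 went from rank 3 to rank 5 and BCL2L11 from rank 10 to rank 8.

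Shares within a library do not depend on how libraries are scaled to each other. The summed TPM of the 10 members was 903 ± 5.93 in WT and 992 ± 13.9 in S127A, a sum that does depend on scaling. Effectors made up 55.5% ± 0.865 of that sum in WT and 34.2% ± 0.244 in S127A. Pro-survival genes made up 28.2% ± 0.821 and 43.1% ± 0.471, and BH3-only genes 16.3% ± 0.36 and 22.7% ± 0.244. The largest class was therefore the effectors in each WT library and the pro-survival genes in each S127A library. BAX alone went from 42.4% ± 1.08 to 27.1% ± 0.367 of the sum.

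**Figure D3:**
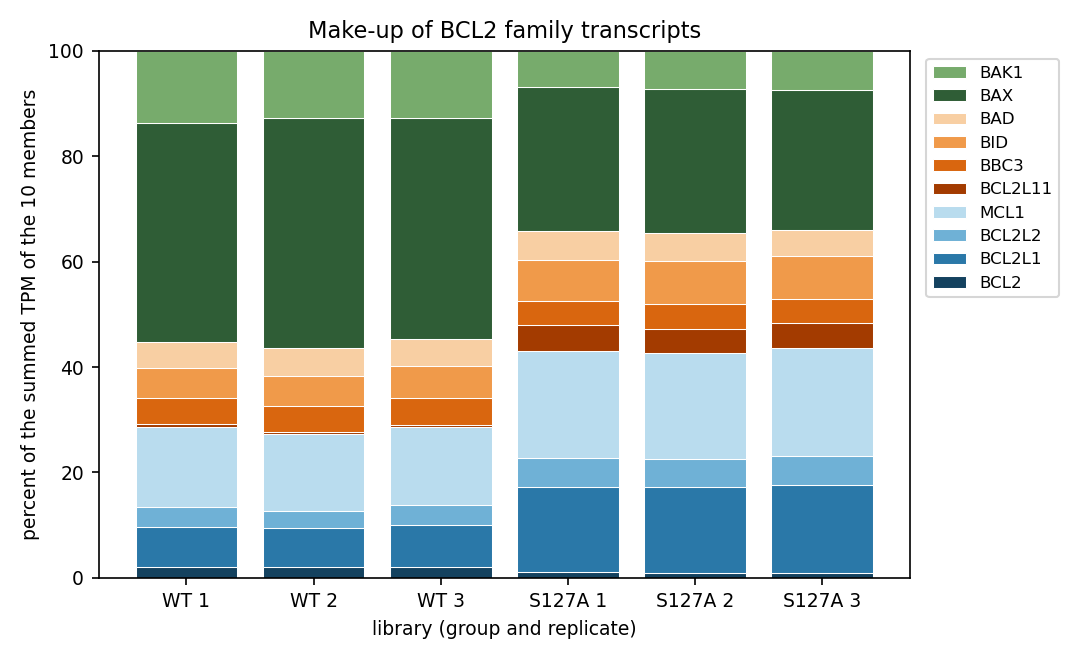
Percent of the summed TPM of the 10 members contributed by each gene, as stacked bars for the 6 libraries, with pro-survival genes in blue, BH3-only genes in orange and effectors in green. The green part covers 55.5% on average in WT and 34.2% in S127A.

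Ratios of RNA between classes moved in the same sense, and they are given as descriptions with no test. Summed pro-survival over summed effector TPM was 0.519, 0.482 and 0.522 in the WT libraries and 1.26, 1.24 and 1.28 in the S127A libraries. Effector RNA was thus in excess in WT and pro-survival RNA in S127A, and the log2 ratio differed by 1.31 between the group means. Without MCL1 the ratio was 0.241 ± 0.0137 in WT and 0.664 ± 0.0142 in S127A, below 1 in both. The ratio of BCL2L1 to BAX was 0.182 ± 0.0104 and 0.604 ± 0.0169, that of MCL1 to BAX 0.35 ± 0.0171 and 0.752 ± 0.0149, and that of BCL2 to BAX 0.049 ± 0.00183 and 0.0371 ± 0.00166. The familiar BCL2 to BAX ratio therefore went down where the BCL2L1 and MCL1 ratios went up.

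Summed BH3-only over summed pro-survival TPM was 0.581 ± 0.0222 in WT and 0.526 ± 0.0113 in S127A, lower in every S127A library than in every WT library. The BH3-only sum holds only the 4 members named above. Of the wider family, PMAIP1 and HRK had no row, and BMF and BIK were not summed. The make-up of the BH3-only sum differed more. BCL2L11 was 3.2% ± 0.361 of BH3-only TPM in WT and 21.0% ± 0.966 in S127A. BBC3 went from 30.0% ± 0.278 to 20.1% ± 0.616 and BAD from 31.0% ± 0.754 to 23.3% ± 1.22, whereas BID held 35.8% ± 0.477 and 35.5% ± 1.1. Against single partners, BCL2L11 stood at 0.0353 ± 0.00239 of MCL1 in WT and 0.234 ± 0.00976 in S127A, and at 0.251 ± 0.0197 and 4.74 ± 0.0674 of BCL2.

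**Figure D4:**
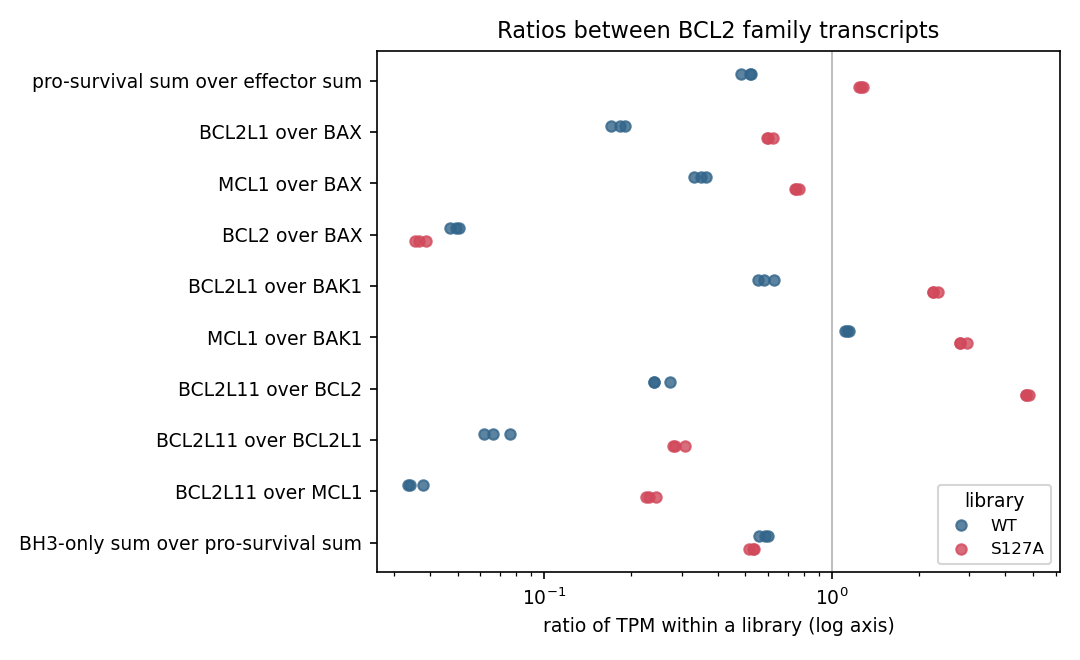
Ratios of TPM within each library on a log axis, with a point for each WT and S127A library and a line at 1. The pro-survival to effector ratio lies between 0.482 and 0.522 in WT and between 1.24 and 1.28 in S127A, and the BCL2L11 to BCL2 ratio crosses 1.

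The genes whose 6 values lay nearest to those of BCL2L11, by Euclidean distance on log2(TPM + 1) over the 6 libraries, were PHYH (distance 0.33), C15orf48 (0.47) and RAB11FIP5 (0.56). PHYH, a peroxisomal enzyme of fatty acid oxidation, rose from 4.52 ± 0.624 to 45.5 ± 3.85 TPM. RAB11FIP5, an adaptor of recycling endosomes, rose from 4.93 ± 0.686 to 57.4 ± 1.46 TPM, and C15orf48 from 5.71 ± 0.23 to 49.5 ± 2.1 TPM. With 2 groups, this likeness rests almost wholly on the group means.

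Counts for the 8 related lists below stand beside 40.2% of all tested genes higher and 49.8% lower. Across these lists 75 of 81 tested genes were called, 24 higher and 51 lower, beside 90.0% of all tested genes. The number called is thus no result about a list. In the wider family of BH3 and BNIP genes, 13 of 19 symbols were listed and 10 tested, of which 2 rose and 8 fell (median log2 change −0.34). BOK, an effector-like relative of BAX, rose from 6.62, 6.87 and 8.2 TPM to 33.76, 37.73 and 38.82 TPM (log2 change 2.20, adjusted p = 3.73e-10). It moved against BAX and BAK1, and at its S127A level it lay below both. BCL2L15 rose from 0.36 ± 0.141 to 4.12 ± 0.426 TPM. BNIP3, a mitochondrial receptor for mitophagy that hypoxia induces, fell from 167 ± 24.2 to 15.9 ± 0.653 TPM (log2 change −3.30, adjusted p = 1.88e-11), and BCL2L13 and BNIP1 fell by 1.07 and 0.67. With quantile normalization 5 of the 10 were lower in place of 8. BCL2A1, a pro-survival relative that NF-kB induces, was listed at 0 in all 6 libraries. Mice carry several copies of this gene, and BCL2A1A, BCL2A1B and BCL2A1D had no row of their own, so the 0 under the shared symbol gives no level for them.

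Downstream of the pore, 12 of 12 released factors, apoptosome parts and caspases were tested, of which 2 rose and 6 fell (median −0.22). CYCS, cytochrome c, fell from 330 ± 6.19 to 134 ± 7.6 TPM, and APAF1, which cytochrome c assembles into the apoptosome, from 53.7 ± 1.3 to 18.3 ± 0.775 TPM. ENDOG, a mitochondrial nuclease, fell from 8.49 ± 1.29 to 1.44 ± 0.88 TPM. The split moved with scaling, to 5 higher and 6 lower with TMM factors and 4 higher and 5 lower with quantile normalization. Of 5 tested caspase inhibitors, BIRC2 and BIRC3 rose (log2 change 0.38 and 0.60) and XIAP, BIRC5 and BIRC6 fell (−0.52, −0.59 and −0.16). BIRC6 did not pass under TMM factors (adjusted p = 0.35) or quantile normalization (adjusted p = 0.0611).

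At the outer membrane, 2 of 11 tested partners and mitochondrial shape genes rose and 8 fell (median −0.39). The channel gene VDAC1 fell from 538 ± 11.1 to 285 ± 4.23 TPM, the fusion GTPase MFN1 from 48.2 ± 0.332 to 17.0 ± 0.889 TPM and the protease OMA1 from 17.6 ± 1.08 to 8.71 ± 0.807 TPM. VDAC3 and the fusion GTPase MFN2 rose, by 0.35 and 0.13. VDAC2, a channel known to hold BAK1 and BAX and chosen after seeing its values, fell from 389 ± 8.37 to 296 ± 6.04 TPM. Of the genes that act on BID, CASP8 and the death adaptor FADD fell (log2 change −0.80 and −1.46) and CFLAR, which restrains caspase-8, rose from 84.3 ± 2.08 to 131 ± 4.11 TPM.

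Genes that act on BAD went both ways, with 9 of 18 kinases and 14-3-3 genes higher and 9 lower (median −0.10). PIM3 rose from 25.5 ± 3.04 to 191 ± 7.04 TPM and PIM1 from 7.43 ± 0.816 to 31.9 ± 0.412 TPM. AKT1 fell from 679 ± 13.7 to 203 ± 8.35 TPM, RPS6KA1 from 14.8 ± 0.933 to 4.31 ± 0.703 TPM and SFN from 5.28 ± 0.39 to 2.04 ± 0.0808 TPM. Of 7 genes of MCL1 turnover, a list that mixes genes that remove and preserve the protein, 1 rose and 6 fell (median −0.45). The one that rose was HUWE1, a ubiquitin ligase for MCL1, from 58.4 ± 1.72 to 90.9 ± 3.43 TPM. GSK3A and GSK3B, kinases that mark MCL1 for destruction, fell by 0.49 and 0.54, and TRIM17 fell from 2.77 ± 0.492 to 1.10 ± 0.281 TPM. In this list 4 genes were lower with TMM factors and 5 with quantile normalization, in place of 6.

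Of 15 tested transcription factors known to act on family genes 5 rose and 9 fell (median −0.15). With TMM factors or quantile normalization 7 were lower in place of 9. MYC rose from 33.7 ± 2.19 to 187 ± 7.51 TPM, and the stress factors DDIT3 and ATF4 from 101 ± 6.18 to 237 ± 3.85 and from 554 ± 26.6 to 993 ± 29.0 TPM. STAT3 fell from 44.5 ± 0.726 to 21.2 ± 0.105 TPM and STAT5A from 19.1 ± 0.611 to 3.01 ± 0.986 TPM.

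**Figure D5:**
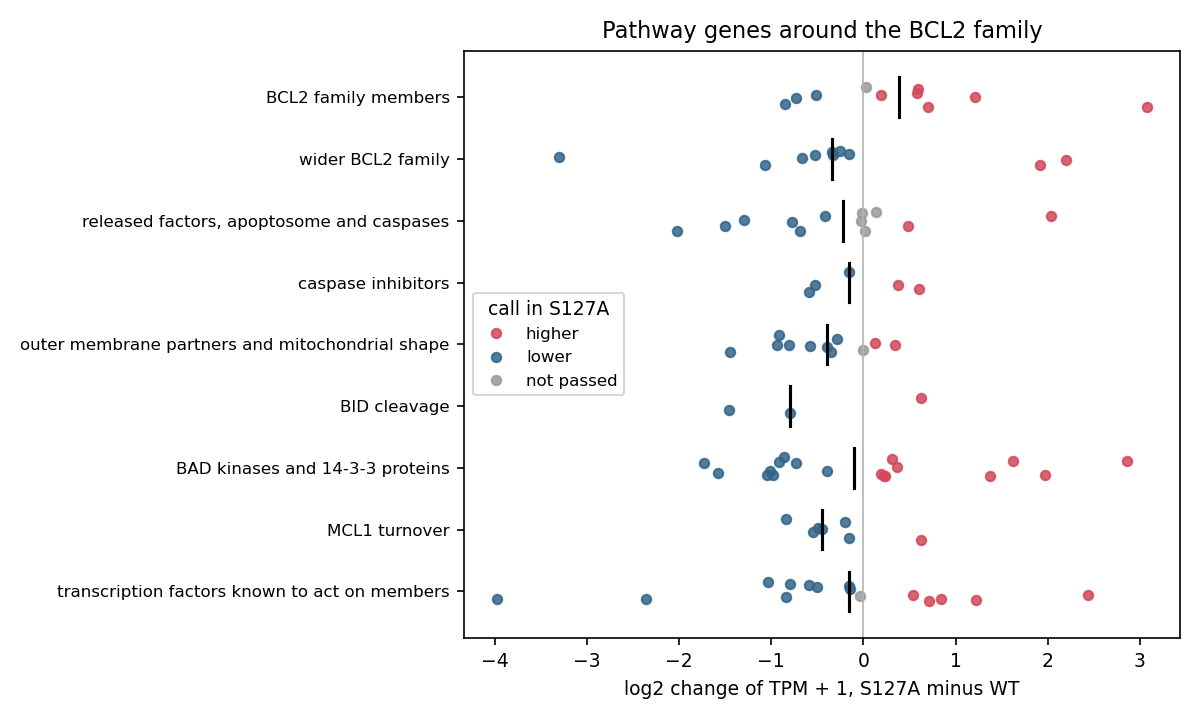
Log2 change of TPM + 1, S127A minus WT, for each tested gene of the family and of 8 related lists, coloured by call, with a black bar at the median of each list. The median is 0.39 for the 10 members and lies between −0.80 and −0.10 for the 8 lists, beside −0.12 for all tested genes.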

How the data were processed

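The authors deposited 1 table of TPM with a column per library, per the file headers. They worked on mm10, per the submitters' processing notes. Aligner, quantifier, annotation and strand setting are not named in the sources used here. Read depth cannot be had from TPM, so errors rest on the spread between replicates. Each SD is that of 3 libraries. SE, confidence intervals and p-values from limma use a variance per gene drawn toward a trend over all tested genes. No count model was run.

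Genotype was the only term of a limma 3.58.1 fit with a mean-variance trend (R 4.3.3) on log2(TPM + 1). The fit was also run on simulated data in which few genes changed. In the real data 90.0% of tested genes were called, so that run does not bear on so wide a difference. An exact permutation test (two-sided) of 3 against 3 TPM values cannot go below p = 0.1, which 9 members reached. The 17 alternatives changed the pseudocount, filter, scaling (TMM factors on TPM, quantile normalization, a common total), variance model, weights, replicate block or libraries.

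Members, lists and tests were chosen with earlier results of these data known. All members were named. From each list up to 3 genes a direction with the largest changes were named, or as the text says. Some genes and 1 list are not reported here. Gene positions and exon overlaps come from GENCODE M21 on mm10, and upstream sequences from RefSeq on GRCm38.p6.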

Additional observations from a re-analysis of the deposited data

How the results depend on the processing

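Over 17 alternatives 9 of 10 members kept their direction and their call, and BBC3 passed only with TMM factors and quantile normalization, which made 10 members called (7 higher) in place of 9. These scalings moved the median log2 change of all genes by 0.12 and 0.11. The count of called genes, 9315 as reported, ran from 8159 with a mean of at least 5 TPM to 10593 with no filter. The higher share of those calls did not move by over 10 percentage points. Yet 4161 were higher and 5154 lower as reported, against 4653 and 4632 with TMM factors and 4614 and 4659 with quantile normalization. The excess of lower genes thus depends on scaling. The log2 change of BCL2L11 ran from 2.43 to 3.30 and that of BAD from 0.16 to 0.31. The difference in log2 ratio of pro-survival to effector TPM, 1.31, was 1.46 without MCL1 and 1.48 without BAX, where the make-up of the sums differs, and 1.27 to 1.33 when a library was left out. FOXO1 changed sign with TMM factors (0.072), quantile normalization (0.137), a common total (0.0134) and without WT replicate 1 (0.0455), ran from −0.114 to 0.0455 when a library was left out, and did not pass in any of these (the cause was not tested). Replicate numbers are shared between groups. Same-numbered libraries deviated together at r = 0.117, 0.0174 and 0.0279 across genes, and not every library correlated best with its own number, so the numbers were not taken as pairs. With the replicate block 9339 genes and 9 members were called. Without depth, counting error at low TPM, as for BCL2L11 in WT, could not be given.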
